A study of Mus musculus with 9 samples.

Results

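The replication-dependent histone genes were examined in LSK cells, the lineage-negative, Sca1+ and cKit+ fraction of mouse bone marrow that contains the blood stem and progenitor cells. A gene was taken as a member when its symbol began with Hist1h, Hist2h, Hist3h or Hist4h and did not carry the pseudogene mark -ps. This gave 64 of the 37882 genes in the table, namely 6 of the linker type H1, 20 of H2A, 18 of H2B, 7 of H3 and 13 of H4. The rule used symbols alone and no measured value. RNA sequencing covered 3 groups of 3 mice, with 1 mouse per library. Control mice carried the doxycycline-dependent activator rtTA at Rosa26 and no histone transgene. K9M mice carried rtTA at Rosa26 and an H3K9M transgene at Col1a1, and K36M mice carried rtTA at Rosa26 and an H3K36M transgene at Col1a1. The series title names the mutated histone as H3.3, in which a methionine replaces lysine 9 or lysine 36. All mice, controls included, were aged 6 to 8 weeks, were on a mixed B6/129 background and drank water with doxycycline at 2 mg/ml and sucrose at 10 mg/ml. No group carried an unmutated histone transgene, so mutant histone and extra histone as such cannot be told apart.

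Replication-dependent histone genes supply the histones that wrap newly copied DNA, and they are transcribed mainly in S phase. Core histones H2A, H2B, H3 and H4 form the nucleosome, and linker histone H1 binds the DNA between nucleosomes. Their mRNAs are unusual because most end in a short stem-loop in place of a polyA tail. SLBP, the stem-loop binding protein, holds this end, and a cut just after it forms the mature mRNA. Some of these genes can also give a polyadenylated mRNA that runs on past the stem-loop. The labels give polyA RNA as the molecule but a kit for total RNA, so they leave unclear how far RNAs without a tail were kept in these libraries.

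In the gene models the stem-loop could be read directly. GENCODE M21 transcripts on mm10 were searched after the stop codon for 6 paired bases around a loop of 4. The search also required GG as the first bases, CC as the last and TT at the start of the loop. A match was found for 41 of the 64 members. The stem-loops below are shown because they are the feature that sets these mRNAs apart and because they split by histone type. Capitals mark the 16 bases of the stem-loop, and lower case letters are up to 5 flanking bases on each side.
Hist1h1c: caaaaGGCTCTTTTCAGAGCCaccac
Hist1h2ap: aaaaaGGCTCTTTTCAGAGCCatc
Hist1h2bm: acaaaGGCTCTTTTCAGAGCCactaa
Hist1h2bb: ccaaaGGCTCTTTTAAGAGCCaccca
Hist2h2ac: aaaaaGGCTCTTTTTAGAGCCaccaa
Hist1h3c: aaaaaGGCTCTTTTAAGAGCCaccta
Hist1h4m: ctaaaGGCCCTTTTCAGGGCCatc
Hist1h4i: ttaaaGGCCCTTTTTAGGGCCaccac
Hist1h4b: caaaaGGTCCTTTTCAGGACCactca

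Beyond the letters fixed by the search, the stem was the same in all H1, H2A, H2B and H3 models with a match. It had other letters in H4. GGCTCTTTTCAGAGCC occurred in 3 H1, 10 H2A, 7 H2B and 4 H3 models. Its loop variant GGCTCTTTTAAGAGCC occurred in 1 H1, 2 H2B and 2 H3 models, and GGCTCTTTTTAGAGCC in 1 H2A model. The 11 H4 models held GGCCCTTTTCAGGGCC in 7, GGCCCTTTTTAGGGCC in 2 and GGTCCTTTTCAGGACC in 2. The loop-to-stop distance ran from 21 to 58 bases. Of the 41 models, 21 ended within 100 bases of the stem-loop and 20 ran on further, up to 4884 bases for Hist1h1d. The model of Hist1h1c ran 840 bases past its stem-loop, that of Hist3h2a 1643 bases and that of Hist1h4i 330 bases. Hist1h2bm ended 46 bases and Hist1h2ap 3 bases after it. The other 23 models held no such match, in several cases because the model stops at or near the stop codon. A stem-loop without the required letters would also have been missed.

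Most members lie on 1 chromosome. On mm10, 51 of the 64 are on chromosome 13, 10 on chromosome 3, 2 on chromosome 11 and 1 on chromosome 6. Hist1h2al lies apart on chromosome 13, from 51202727 to 51203065. The other members there lie between 21715763 and 23934851. Single-exon models made up 58 of the 64. Copies are alike, which bears on every level given here: the median member shared 48.2% of the 50-base windows of its transcript with transcripts of other genes, and 30 members shared over 50%. How the authors counted reads that match several copies is not given in the sources used here. Pairs of copies such as Hist1h2ao and Hist1h2ap, whose transcripts share 93.5% of windows, are therefore uncertain singly. Hist1h1c shared only 8.54%.

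The promoters also differed by type. RefSeq promoter windows (GRCm38.p6, 250 bases before to 50 after the start) were matched for 55 members. On either strand, CCAAT was present in 43 of 43 windows of H1, H2A, H2B and H3 genes and in 3 of 12 of H4 genes, against 37.4% of all 32851 windows. GGTCCG was present in 11 of 12 H4 windows and in 8.25% of all windows. The octamer ATTTGCAT was found in 7 of 15 H2A and 6 of 16 H2B windows, against 1.74% of all windows, and in no H1, H3 or H4 window. TATAAA was found in 31 of the 55 windows, against 13.6% of all. TTTCGCGC was found in 9 windows, against 0.323% of all, TTTCCCGC in 1 (1.07% of all), AAACACAAA in 3 (0.767%) and TTTGGCGC in 0 (0.514%). Matches of different motifs were counted apart, also where they overlapped. These windows are not all independent, since 9 H2A and 9 H2B windows overlapped that of another member. Motif matches are letters only and no binding was measured.

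The 250 bases before the start of 3 genes are shown because these genes led their types in level or in change. They are written 5′ to 3′ on the strand of the gene. Capitals mark CCAAT (or ATTGG, the same motif on the other strand) and ATTTGCAT in Hist1h2bm at chr13:21721794-21722043 (plus strand), CCAAT in Hist1h1c at chr13:23738557-23738806 (plus strand), and GGTCCG and TATAAA in Hist1h4k at chr13:21750554-21750803 (minus strand).
Hist1h2bm: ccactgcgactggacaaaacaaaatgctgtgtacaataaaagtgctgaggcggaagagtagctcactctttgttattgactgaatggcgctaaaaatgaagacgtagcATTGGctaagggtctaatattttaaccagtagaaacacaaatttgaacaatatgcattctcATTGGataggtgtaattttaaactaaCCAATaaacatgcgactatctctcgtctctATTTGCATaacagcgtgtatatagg
Hist1h1c: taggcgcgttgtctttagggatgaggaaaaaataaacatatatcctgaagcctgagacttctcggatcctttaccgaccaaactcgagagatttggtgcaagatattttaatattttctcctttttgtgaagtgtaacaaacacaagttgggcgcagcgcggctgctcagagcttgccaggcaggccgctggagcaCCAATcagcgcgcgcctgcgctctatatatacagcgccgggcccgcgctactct
Hist1h4k: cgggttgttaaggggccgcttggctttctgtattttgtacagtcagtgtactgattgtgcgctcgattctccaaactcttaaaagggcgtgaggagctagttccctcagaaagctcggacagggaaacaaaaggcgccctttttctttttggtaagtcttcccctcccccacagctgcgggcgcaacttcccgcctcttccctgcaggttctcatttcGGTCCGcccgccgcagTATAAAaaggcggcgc

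Sequencing depth is hidden by RPKM, which divides reads by transcript length and by library size. From the size of single-read steps in the table, the libraries held about 15870000 reads (K9M 3) to 50330000 reads (K36M 3), and rtTA 1 held about 16580000. The 62 members matched to M21 by identifier took between 0.0177% and 0.0398% of reads. This share leaves out Hist1h2bm, the member with the highest mean, and Hist1h2bh, which were matched by symbol. Of the 8 LSK sort markers, all were tested and 0 were called by limma in any comparison. In K9M against rtTA, K36M against rtTA and K36M against K9M, 1, 5 and 4 of the 8 had an unadjusted p under 0.05. Over all tested genes the shares were 7.11%, 19.1% and 18.8%. The summed level of the sort markers was 704 to 960.3 RPKM in rtTA, 793 to 892 in K9M and 652 to 663 in K36M. The summed level of 10 mature granulocyte markers was 726 to 6415 RPKM in rtTA, 453 to 1092 in K9M and 181 to 418 in K36M. Erythroid markers summed to 97.1 to 168 RPKM in rtTA, 165 to 253 in K9M and 197 to 336 in K36M. Without the beta globin gene Hbb-bt the sum of the other 9 markers was 87.3 to 153 RPKM in rtTA, 159 to 229 in K9M and 95.9 to 154 in K36M, so K36M then overlapped rtTA and lay below K9M. In K36M, Hbb-bt rose against rtTA by 3.64 in log2 units (limma adjusted p = 0.0267) and against K9M by 3.10 (limma adjusted p = 0.0336). Leaving out any rtTA library, K36M 1 or K36M 3 ended the first of these Hbb-bt calls (limma adjusted p from 0.0645 to 0.125), and leaving out rtTA 3, K9M 2 or any K36M library ended the other (0.0509 to 0.131). No other erythroid marker was called: in K36M against K9M, Car1, a carbonic anhydrase of red cells, stood at -1.32 (limma adjusted p = 0.0711) and Hba-a2, an alpha globin gene, at -0.70 (limma adjusted p = 0.438). B lineage markers summed to 37.6 to 51.1, 19.9 to 24.9 and 31.2 to 36.9 RPKM and T lineage markers to 23.6 to 44.9, 24.6 to 29.5 and 14.8 to 27.6 RPKM in the same order of groups, with 0 called. No marker of these lists was at 0 in all libraries. In bulk samples, fewer cells of a type and less RNA per cell cannot be told apart.

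Levels were very uneven among members. Hist2h2aa2 and Hist2h3c1 were listed at 0 in all 9 libraries, 30 members had a mean over the 9 libraries above 0 and under 1 RPKM, 14 a mean of 1 to under 5, 14 a mean of 5 to under 50 and 4 a mean of 50 or more. Those 4 were Hist1h2bm (118 RPKM), Hist1h4k (118 RPKM), Hist1h2ap (85.2 RPKM) and Hist1h2al (56.02 RPKM). These ranks and the shares below depend on the length of the gene model. Hist1h4k, with an M21 model of 312 bases, had a mean of about 1126 reads. Hist1h2bc, with 1156 bases and a lower RPKM, had about 1555. The 5 highest members held 56.8% to 65.3% of the summed RPKM of all members, depending on the library, and the 20 highest held 93.1% to 96.5%. In each type 1 gene had the highest mean over the libraries, and it was also the highest in every library except for H2A in K9M 3, where Hist1h2al (73.4 RPKM) lay above Hist1h2ap (54.04 RPKM). Hist1h1c held 79.3% to 93.3% of the H1 sum, Hist2h3b 70.4% to 83.3% of H3, Hist1h4k 62.4% to 71.03% of H4, Hist1h2bm 43.4% to 51.1% of H2B and Hist1h2ap 22.5% to 45.5% of H2A.

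**Figure D1:**
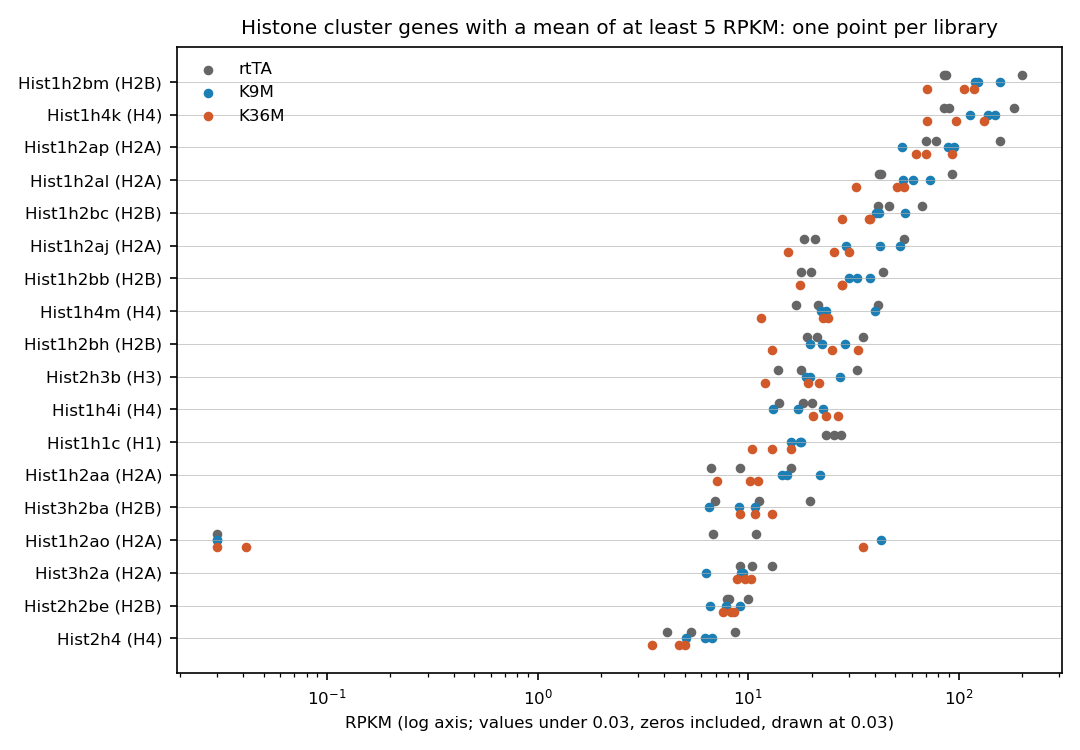
RPKM on a log axis (horizontal) of the 18 histone genes with a mean of at least 5 RPKM, 1 point per library and colour by group. Levels span from about 5 RPKM for Hist2h4 to over 100 RPKM for Hist1h2bm and Hist1h4k, and Hist1h2ao is the 1 gene with libraries at 0.

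The summed level of the H1 members was ordered by group. The summed H1 level was 30.1, 26.7 and 29.5 RPKM in the rtTA libraries, 21.7, 21.7 and 20.1 RPKM in K9M and 15.8, 18.8 and 11.8 RPKM in K36M. The groups did not overlap: every rtTA library lay above every K9M library, which lay above every K36M library. The group values were 28.8 ± 1.79, 21.2 ± 0.930 and 15.5 ± 3.49 RPKM (SD, n = 3 each).

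Each core type had its highest library in rtTA, and rtTA overlapped both other groups. The summed H2A level was 349, 184 and 177 RPKM in rtTA, 234, 236 and 241 RPKM in K9M and 233, 204 and 140.0 RPKM in K36M. Every K9M library was above every K36M library, at the nearest by 234.1 (K9M 1) against 232.5 RPKM (K36M 1). This sum includes Hist1h2aj and Hist1h2al, annotated as pseudogenes. They stood at 52.7 and 54.2 RPKM in K9M 1 and at 30.2 and 54.9 RPKM in K36M 1. The order of K9M 1 above K36M 1 therefore rests on counting them. For H2B, H3 and H4 the K9M and K36M libraries overlapped. Summed H2B was 390.2, 197 and 195, then 249, 241 and 307, then 259, 226 and 153 RPKM in the same order of libraries. Summed H3 was 44.7, 17 and 22.8, then 27.9, 26.2 and 34.1, then 27.8, 23 and 15.3 RPKM. Library rtTA 1 was the highest of all 9 for each of these types, far above the other controls, and K36M 3 was the lowest. Summed H4 was 258, 139 and 127 RPKM in rtTA, 167, 195 and 213 RPKM in K9M and 192, 155 and 113 RPKM in K36M, with the same 2 libraries at the ends.

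**Figure D2:**
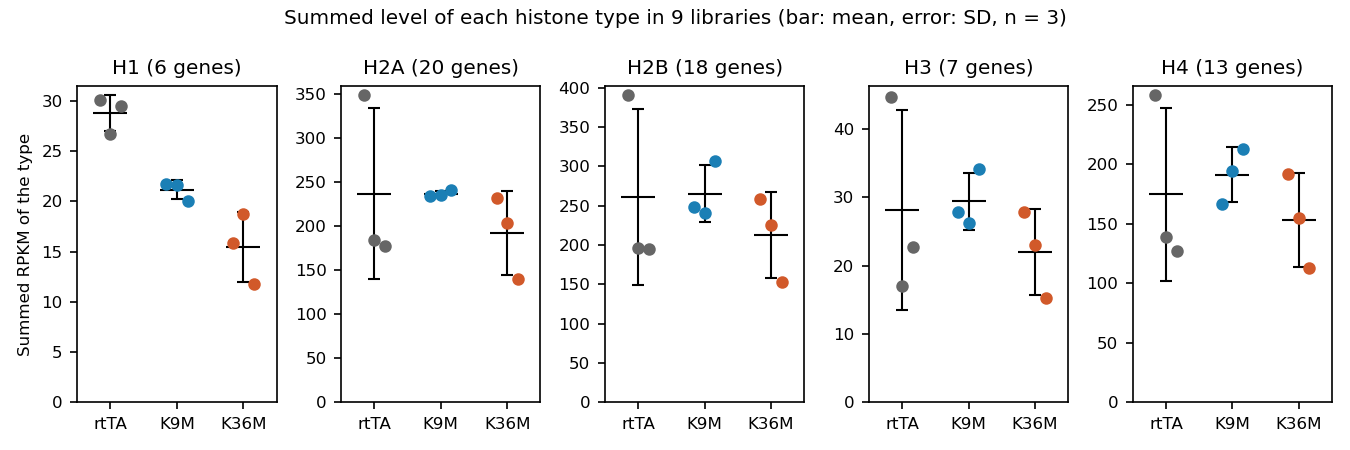
Summed RPKM (vertical) of each histone type by group, with 1 point per library, a bar at the mean and an error bar of 1 SD (n = 3). The 3 groups are separate for H1. For H2A, H2B, H3 and H4 the rtTA libraries overlap both other groups, and 1 rtTA library lies far above the other rtTA libraries. K9M and K36M are separate only for H2A, a sum that includes the pseudogenes Hist1h2aj and Hist1h2al.

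Hist1h1c (ENSMUSG00000036181, chromosome 13, 23738808 to 23740367), the highest of the H1 members, set the H1 pattern. Linker histone genes outside the members stood higher. H1f0 ranged from 42.2 to 81.5 RPKM, and H1fx had means of 36.2, 48.5 and 42.2 RPKM in rtTA, K9M and K36M. The level of Hist1h1c was 25.6, 23.5 and 27.5 RPKM in rtTA, 17.9, 17.7 and 15.9 RPKM in K9M and 13, 16 and 10.4 RPKM in K36M, from about 394 to 1361 reads per library. Every rtTA library lay above all others, while K9M and K36M touched, with K36M 2 above K9M 3. Hist1h1a, a linker gene of low level, stood at 0.968, 0.990 and 0.697 RPKM in rtTA, 1.45, 1.09 and 1.60 in K9M and 0.797, 0.254 and 0.399 in K36M. It was highest in the K9M libraries, none of which overlapped another group, but rests on only about 6.94 to 52.5 reads per library. The remaining H1 members were lower still in RPKM or had overlapping groups. Hist1h1e ranged from 0.664 to 2.50 RPKM. Hist1h1b, Hist1h1d and Hist1h1t, the last a testis-expressed form, had means under 1 RPKM and were not tested. The low RPKM of Hist1h1d goes with a long model of 7425 bases. Its mean was about 72.9 reads per library, against 21.04 for Hist1h1a (741 bases) and 76.2 for Hist1h1e (1930 bases).

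Among H2A genes, Hist1h2ap (chromosome 13, 21833026 to 21833507) had the highest mean. Its level was 157, 77.7 and 69.6 RPKM in rtTA, 88.7, 94.9 and 54 in K9M and 69.8, 92.8 and 62.6 in K36M. Its near-identical copy Hist1h2ao stood at 0, 6.84 and 10.9 RPKM in rtTA, 0, 0 and 42.8 in K9M and 35.2, 0 and 0.0414 in K36M. In K9M 3, where the copy was at its highest, Hist1h2ap was at its lowest of the 9 libraries, and in 4 libraries the copy was listed at 0. Groups overlapped for both genes. Hist1h2al, from 32.6 to 92.9 RPKM, and Hist1h2aj, from 15.5 to 54.7 RPKM, are annotated as pseudogenes in M21, and the rule kept them because their symbols lack the -ps mark. Hist1h2aa, a testis-type H2A gene, ranged from 6.68 to 22.0 RPKM, and its 3 K9M libraries at 14.5, 22 and 15.4 RPKM lay above all K36M libraries and overlapped rtTA. Hist1h2ak, of low level, ranged from 0.491 to 2.88 RPKM with its highest library in rtTA.

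Among H2B genes, Hist1h2bm (chromosome 13, 21722044 to 21722567) stood at 199, 87.3 and 84.8 RPKM in rtTA, 123, 120.1 and 156 in K9M and 118, 106 and 70.4 in K36M. K9M lay above K36M in every library, and rtTA overlapped both because rtTA 1 was the highest and the other controls were near the lowest. Hist1h2bc, an H2B gene whose model runs over several kilobases of chromosome 13, stood at 67.3, 46.7 and 41.4 RPKM in rtTA, 41.8, 40.6 and 55.9 in K9M and 37.5, 37.8 and 27.9 in K36M. All 3 K36M libraries were below every other library. Hist2h2be varied least of the 18 more abundant members, from 6.58 to 9.96 RPKM. Hist1h2bg (0.161 to 7.19 RPKM), Hist1h2bj (0 to 5.68 RPKM) and Hist1h2ba, a testis-type H2B gene (0 to 12.1 RPKM), each had at least 1 group with a wide spread. Of the other H2B genes, Hist1h2bb stood at 43.6, 17.9 and 19.8 RPKM in rtTA, 30.3, 33 and 37.8 in K9M and 28, 27.9 and 17.7 in K36M, with every K36M library below every K9M library. Hist1h2bh ranged from 12.99 to 35.01 RPKM and Hist3h2ba from 6.55 to 19.7 RPKM, both highest in rtTA 1 and with overlapping groups.

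Hist2h3b (chromosome 3, 96268654 to 96269141) supplied most of the summed level of the 7 H3 members. It stood at 33, 13.8 and 17.7 RPKM in rtTA, 19.6, 18.9 and 27.3 in K9M and 21.7, 19.2 and 12.1 in K36M, with overlapping groups and the extremes again in rtTA 1 and K36M 3. Hist1h3c ranged from 2.28 to 8.52 RPKM and its 3 K36M libraries were below all K9M libraries. Hist1h3a ranged from 0 to 1.24 RPKM. M21 also holds Hist1h3f and Hist1h3h, which are not among the members, so the H3 sum does not cover all H3 genes. Hist2h3b shared 79.7% of its windows with other transcripts, and Hist2h3c1, listed at 0, shared 100%. The leading place of Hist2h3b is therefore uncertain.

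Hist1h4k (chromosome 13, 21750194 to 21750505) supplied most of the H4 level, at 183, 89.7 and 85.6 RPKM in rtTA, 114, 138 and 149.5 in K9M and 133, 96.7 and 70.5 in K36M. Its groups overlapped, and rtTA 1 and K36M 3 were again the highest and the lowest library. Hist1h4i (chromosome 13, 22040636 to 22041362) had another order, at 20.1, 18.1 and 14 RPKM in rtTA, 17.3, 22.6 and 13.1 in K9M and 26.6, 23.5 and 20.3 in K36M. All K36M libraries were above all rtTA libraries, by 20.3 against 20.1 RPKM at the nearest. Hist1h4c (0 to 1.26 RPKM) and Hist1h4n (0 to 3.38 RPKM) were each listed at 0 in at least 1 library of every group. Hist2h4 stood at 8.69, 4.12 and 5.37 RPKM in rtTA, 6.72, 5.06 and 6.22 in K9M and 4.72, 5 and 3.48 in K36M, with every K36M library below every K9M library, and Hist1h4m ranged from 11.5 to 41.4 RPKM with overlapping groups.

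The comparison of K9M with rtTA asked which members differed in mice with the lysine 9 mutant. Tests used limma on log2(RPKM + 0.5) for the 12926 genes with at least 1 RPKM in at least 3 libraries, and "called" means a p under 0.05 after Benjamini-Hochberg adjustment over all of them. The filter kept 39 members (3 H1, 13 H2A, 11 H2B, 4 H3 and 8 H4), and 25 with means from 0 to 1.19 RPKM were not tested. Between K9M and rtTA, 0 of the 39 members were called, where 0.116% of all tested genes were, and 4 members had an unadjusted p under 0.05 (10.3%, against 7.11% of all tested genes). Of the 39 log2 differences, 21 were positive and 18 negative with a median of 0.04, beside 0.01 over all tested genes. The smallest adjusted p was that of Hist1h1c, with a log2 difference of -0.56 (SE 0.15, limma adjusted p = 0.401). There was no overlap between the groups for 3 members (Hist1h1a, Hist1h1c and Hist1h2bg), against 12.5% of all tested genes.

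Outside H1, the largest differences by type in this comparison came from genes of low or uneven level. Hist1h4n had a log2 difference of 1.30 (SE 0.86) and Hist1h2ba 1.29 (SE 1.35), with limma adjusted p of 0.787 and 0.865. Hist1h3a stood at 0.65 (SE 0.50, limma adjusted p = 0.817), Hist1h2ak at -0.81 (SE 0.34, limma adjusted p = 0.699) and Hist1h2aa at 0.75 (SE 0.30, limma adjusted p = 0.658). The leading core genes lay nearer 0: Hist1h2bm at 0.22, Hist1h4k at 0.24, Hist2h3b at 0.10 and Hist1h2ap at -0.30. The median SE of the members was 0.34, against 0.17 over all tested genes. Without rtTA 1, the library with the highest core histone levels, the median of the tested members was 0.21, 11 of 37 had an unadjusted p under 0.05 (29.7%, against 12.6% of all tested genes in that fit) and limma called 0, where 0.25% of all tested genes were called.

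In the comparison of K36M with rtTA, Hist1h1c fell and was the 1 member called, where 1.5% of all tested genes were called in either direction and 0.928% as lower. Its level went from 25.5 ± 2.03 RPKM in rtTA to 13.1 ± 2.82 RPKM in K36M (SD, n = 3 each), a log2 difference of -0.95 (SE 0.15, 95% interval -1.29 to -0.61, limma adjusted p = 0.0231). It was lower in each of the 3 K36M libraries than in each rtTA library. The call was lost without rtTA 1 (limma adjusted p = 0.0571), rtTA 2 (0.0530), rtTA 3 (0.0844), K36M 1 (0.106) or K36M 3 (0.0779), with no filter (0.0555) and with only the 2 groups compared (0.0963), while the log2 difference stayed between -1.10 and -0.80 over all 21 alternatives. Of the sort markers, Kit, the receptor used in the gate, stood at -0.54 (limma adjusted p = 0.0918) in this comparison, and the granulocyte gene Ltf fell by 4.01 on the log2 scale (limma adjusted p = 0.0370), a call lost under 9 of 21 alternatives. These included leaving out rtTA 1, any K9M library or any K36M library (limma adjusted p from 0.0571 to 0.142 for Ltf). The part of the cell makeup in the Hist1h1c difference was not tested.

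No other member passed in K36M against rtTA, and 2 of 39 had an unadjusted p under 0.05, against 19.1% of all tested genes. Of the 39 log2 differences, 12 were positive and 27 negative, with a median of -0.19, beside 0.02 over all tested genes. In each type the median was negative, from -0.05 for H4 to -0.52 for H1. This lean rested on single libraries: the median was 0.03 without rtTA 1 and -0.01 without K36M 3, against -0.36 without rtTA 2, -0.30 without rtTA 3 and -0.39 without K36M 1. Hist1h2bc stood at -0.57 (SE 0.21, limma adjusted p = 0.186) and Hist1h4i at 0.43 (SE 0.20, limma adjusted p = 0.297), and with Hist1h1c these were the 3 members whose groups did not overlap, against 22.3% of all tested genes. Outside H1, the largest difference of each type was that of Hist1h2bg in H2B (-1.21, SE 0.61), Hist1h4n in H4 (0.91, SE 0.86), Hist1h2ak in H2A (-0.76, SE 0.34) and Hist1h3c in H3 (-0.60, SE 0.35), with limma adjusted p from 0.271 to 0.613. Hist1h2bj (1.19, SE 0.89) and Hist1h2ba (0.82, SE 1.35) had wider errors, with limma adjusted p of 0.516 and 0.788. Hist1h2bm was at -0.25, Hist1h4k at -0.21, Hist2h3b at -0.22 and Hist1h2ap at -0.35.

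Between K36M and K9M, 0 of the 39 members were called, where 2.52% of all tested genes were, and 3 had an unadjusted p under 0.05 (7.69%, against 18.8% of all tested genes). Hist1h1a came nearest, at -0.96 (SE 0.26, limma adjusted p = 0.0912), followed by Hist1h2aa at -0.83 (SE 0.30, limma adjusted p = 0.175) and Hist1h1c at -0.39 (SE 0.15, limma adjusted p = 0.194). Log2 differences were positive for 12 members and negative for 27, with a median of -0.30 beside 0.01 over all tested genes. Without K36M 3 the split was 18 positive and 18 negative and the median -0.02. Groups did not overlap for 9 members, 8 of them lower in K36M, against 27.9% of all tested genes and 13.4% as lower. Those lower were Hist1h1a, Hist1h2aa, Hist1h2bb, Hist1h2bc, Hist1h2bm, Hist1h3c, Hist2h4 and Hist4h4, and Hist1h4d was higher. Hist1h2bj (0.95, SE 0.89), Hist1h4c (0.93, SE 0.60) and Hist1h3c (-0.67, SE 0.35) were the largest differences in their types, with limma adjusted p of 0.619, 0.453 and 0.350. The K36M libraries enter 2 comparisons and so do the K9M and rtTA libraries, so the 3 comparisons share samples.

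**Figure D3:**
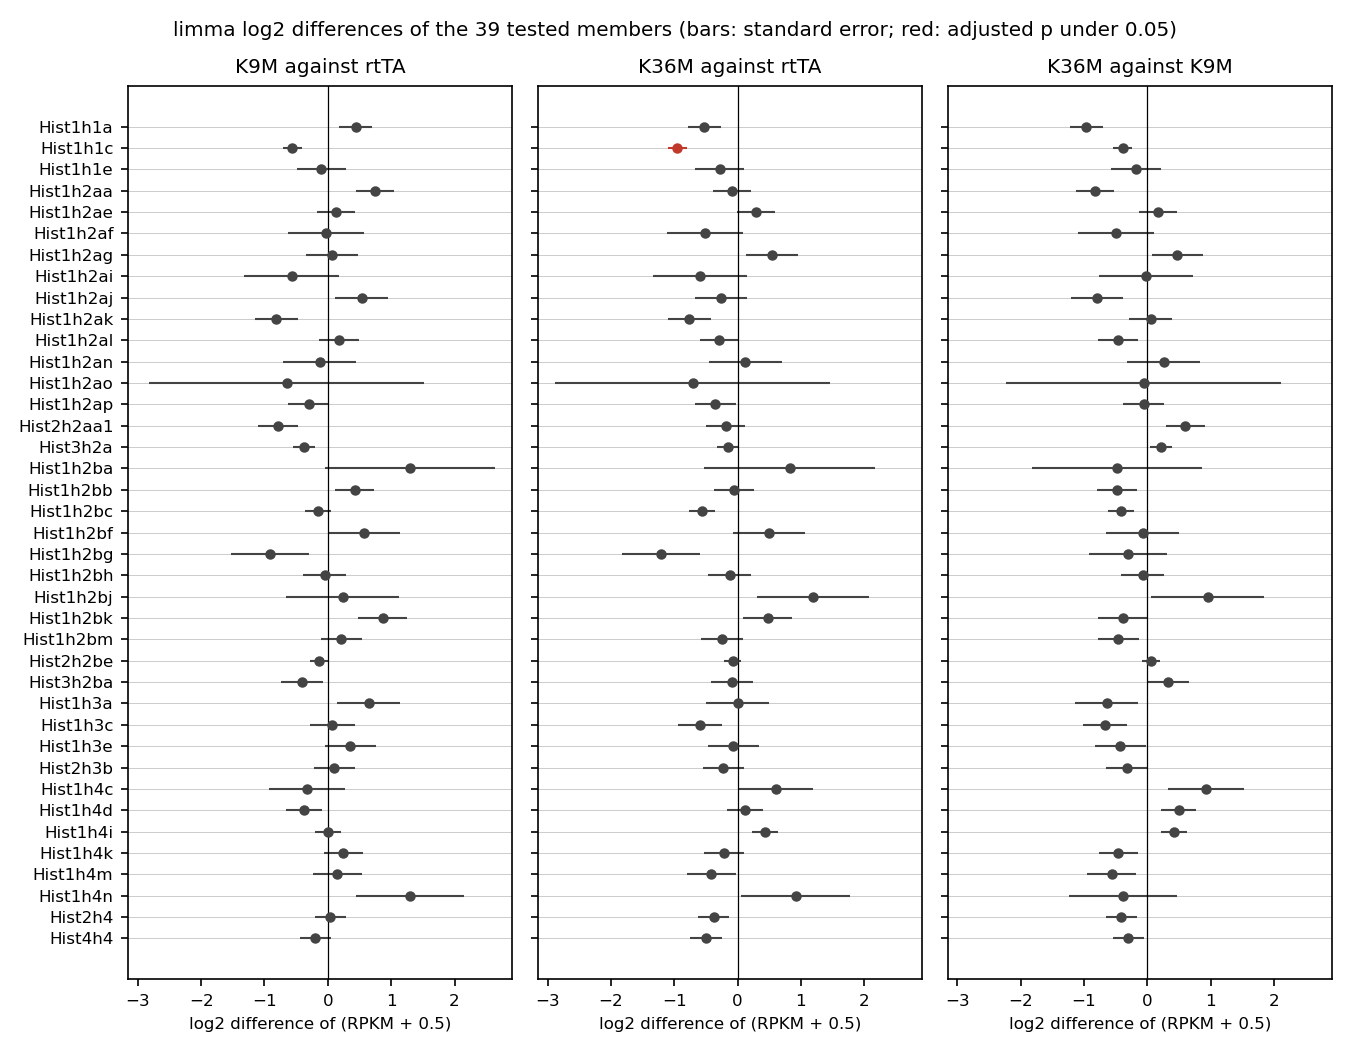
Log2 difference of RPKM + 0.5 (horizontal) for the 39 tested histone genes in the 3 comparisons, with a bar of 1 standard error from limma. The red point is Hist1h1c at -0.95 in K36M against rtTA, the 1 member with an adjusted p under 0.05, and Hist1h2ao and Hist1h2ba have the widest bars.

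The spread within groups had an order that many core members shared. Of the 18 members with a mean of at least 5 RPKM, 14 were highest in rtTA 1 and 11 lowest in K36M 3. Of 10 tested RNAs of other classes, which carry no polyA tail, 4 were highest in rtTA 1 and 7 lowest in K36M 3. Those highest in rtTA 1 were Rn7sk, Rmrp, Rpph1 and Scarna2. Rny1 and Rny3 were highest in K9M 3, and the other 4, at no more than 6.33 RPKM, were highest in rtTA 2, K36M 1 or K36M 2. Rn7sk, the RNA of the 7SK particle that holds back transcription elongation, stood at 13420, 5954 and 5893 RPKM in rtTA, 8604, 8343 and 11210 RPKM in K9M and 8970, 7160 and 4872 RPKM in K36M. Rmrp, the RNA of the RNase MRP particle, stood at 1790, 778 and 809 RPKM in rtTA, 1092, 1101 and 1422 in K9M and 1299, 931 and 649 in K36M. Both were highest in rtTA 1, followed by K9M 3, and lowest in K36M 3. Of the 20 RNAs without a polyA tail that were in the table, 10 were tested and 0 were called by limma in any comparison, none with an unadjusted p under 0.05.

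Divided by Rn7sk, the leading core histone genes varied little. Hist1h2bm stood between 13.2 and 14.8 RPKM per 1000 RPKM of Rn7sk in all 9 libraries, and its coefficient of variation (CV) over the libraries was 33.5% as a level and 3.62% as this ratio. For Hist1h4k the CV went from 30.7% to 7.51%, for Hist1h2al from 32.4% to 6.02%, for Hist2h3b from 31.6% to 9.41% and for Hist1h2bb from 31.6% to 9.46%. Rmrp, as a reference, went from 32.9% to 4.20%. Hist1h2ap went from 35.6% to 25.7%, and summed with its copy Hist1h2ao from 27.04% to 14.5%.

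Other members did not share this order. For Hist1h1c the CV was 31.0% as a level and 45.6% as a ratio to Rn7sk. Hist1h4i went from 22.4% to 36.02%, Hist3h2a from 18.1% to 31.9% and Hist2h2be from 11.7% to 31.03%. In all, the CV of the ratio was smaller than that of the level for 14 of the 18 members, against 10.6% of all tested genes, whose median went from 17.7% to 38.2%. The median of the 18 members went from 31.6% to 23.5%. Rn7sk itself varied widely, so division by it tends to raise the CV of a gene that varied little. The members started from a higher CV, so the shares are not like for like. By gene model, the CV of the ratio was smaller for 5 of 5 members whose model ends within 100 bases of the stem-loop, for 6 of 7 with no stem-loop in the model and for 3 of 6 whose model runs further. Both the 5 of 5 and the 14 of 18 include Hist1h2ao. This copy was listed at 0 in 4 libraries, and its CV went from 156% to 138%. Among cell cycle genes with polyadenylated mRNAs, Pcna, the replication clamp, went from 8.72% to 28.9% and Mki67, a proliferation marker, from 29.1% to 58.9%. These ratios describe 9 libraries, and no test was made of them. The 2 libraries with the fewest reads, rtTA 1 and K9M 3, were the 2 with the most Rn7sk, and the library with the most reads, K36M 3, had the least, while K9M 1, at about 48890000 reads, stood at 8604 RPKM of Rn7sk. The part of depth and of RNA without a polyA tail in the histone levels was not tested. With log2 Rn7sk as a covariate in the limma fit, Hist1h1c in K36M against rtTA remained called (adjusted p = 0.0322) and the median of the members was -0.04, against -0.13 in K9M against rtTA and -0.02 in K36M against K9M.

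**Figure D4:**
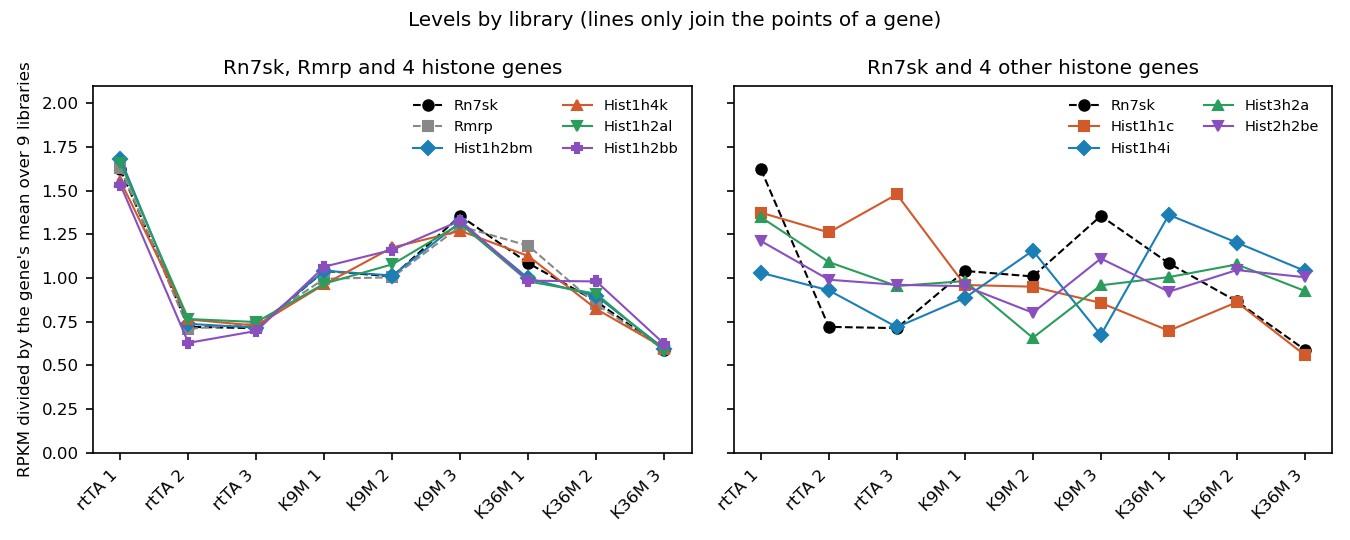
RPKM of each gene divided by its mean over the 9 libraries (vertical), with the libraries on the horizontal axis; lines only join the points of a gene. On the left, Hist1h2bm, Hist1h4k, Hist1h2al and Hist1h2bb lie close to Rn7sk and Rmrp, and on the right Hist1h1c, Hist1h4i, Hist3h2a and Hist2h2be do not.

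**Figure D5:**
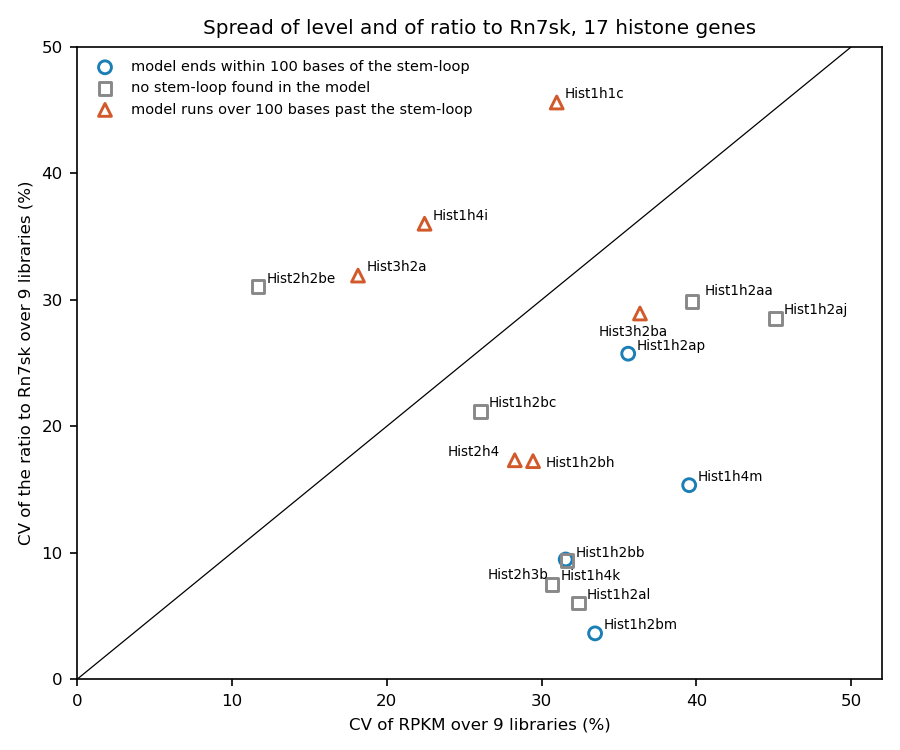
CV over 9 libraries of the level (horizontal) and of the ratio to Rn7sk (vertical) for 17 histone genes, with the marker showing where the gene model ends (Hist1h2ao, at 0 in 4 libraries, is left out). Points under the diagonal line vary less as a ratio, with Hist1h2bm lowest at 3.62%, and Hist1h1c, Hist1h4i, Hist3h2a and Hist2h2be lie above it.

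Genes of the cell cycle and of histone supply gave few calls. S phase genes, which include the replication helicase and nucleotide synthesis genes, had 0 of 22 called by limma in each comparison. In K9M against rtTA, K36M against rtTA and K36M against K9M, 6, 13 and 2 of them had an unadjusted p under 0.05. Over all tested genes the shares were 7.11%, 19.1% and 18.8%. Differences were positive for 21, 21 and 15 of the 22 S phase genes. Their median log2 differences were 0.22, 0.30 and 0.08, so the median for K36M against rtTA was positive while that of the histone members was negative. Rrm2, the small subunit of ribonucleotide reductase, stood at 0.55 in K36M against rtTA (limma adjusted p = 0.0924). Of 15 G2 and mitosis genes, 1 rose in K36M against K9M, namely the mitotic kinase gene Plk1 (0.67, limma adjusted p = 0.0384). This call was lost under 10 of 21 alternatives, among them leaving out rtTA 3, any K9M library, K36M 1 or K36M 3 (limma adjusted p from 0.0584 to 0.148). The median of the list in K36M against rtTA was 0.40 with 0 called. All 15 differences were positive there, and 10 of the 15 had an unadjusted p under 0.05, against 19.1% of all tested genes.

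Among 22 tested genes for activation and processing of histone mRNAs, 0 were called in any comparison. Slbp, which encodes the stem-loop binding protein, stood at 32.9, 41.6 and 32.6 RPKM in rtTA, 40.4, 41.1 and 39 in K9M and 51, 49 and 41.7 in K36M, with every K36M library above all others, by 41.7 against 41.6 RPKM at the nearest. Its log2 difference in K36M against rtTA was 0.40 (limma adjusted p = 0.132). Ccne2, a cyclin of the entry into S phase, stood at 0.70 in the same comparison (limma adjusted p = 0.0637). Among 19 histone chaperones, Asf1b, which passes H3 and H4 to assembly factors, rose in K36M against K9M (0.57, limma adjusted p = 0.0415) and was the 1 call of the list. The Asf1b call was lost under 12 of 21 alternatives, among them leaving out rtTA 2, rtTA 3, any K9M library, K36M 1 or K36M 3 (limma adjusted p from 0.0562 to 0.148).

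Histone variant genes outside the members were measured beside them. Of 11 tested, H3f3a, which encodes H3.3, rose in K36M against rtTA (1.04, limma adjusted p = 0.0142), and reads of the H3.3 transgene cannot be told apart from it here. The H3f3a call was lost without rtTA 3 (limma adjusted p = 0.0567), K36M 1 (0.0744) or K36M 3 (0.0710) and with only the 2 groups compared (0.0729). In K9M against rtTA, H3f3a stood at 0.43 and was not called (limma adjusted p = 0.509). Its level was 319, 284 and 296 RPKM in K9M and 256, 192 and 224 RPKM in rtTA. H2afy, the gene of macroH2A1, fell in K36M against K9M (by 0.61 on the log2 scale, limma adjusted p = 0.0332), and the call was lost under 9 of 21 alternatives, among them leaving out rtTA 3, any K9M library or any K36M library (limma adjusted p from 0.05035 to 0.127). H1f0, a replacement linker histone, stood at 53.9, 42.2 and 46.5 RPKM in rtTA, 61.1, 46.2 and 48.8 in K9M and 74.2, 81.5 and 66.9 in K36M. Its K36M libraries were above all others, but the difference from rtTA did not pass (0.64, limma adjusted p = 0.0618). The same list had median log2 differences of 0.19, 0.19 and -0.09 in the 3 comparisons.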

How the data were processed

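Gene expression was measured by RNA sequencing in 9 libraries of sorted LSK cells, 3 per group, with 1 mouse per library. The values are RPKM as deposited, for 37882 genes. CASAVA 1.7 and STAR on mm10 were used, per the submitters' processing notes; counting rule, STAR version and annotation: not given in the sources used here. Values were analysed with limma 3.58.1 in R 4.3.3 as log2(RPKM + 0.5) for genes with at least 1 RPKM in at least 3 libraries, a scale that understates changes of low genes. The 3 group means were fitted to all 9 libraries with an eBayes trend (residual degrees of freedom 6, prior 3.14). All tests were two-sided, with Benjamini-Hochberg adjustment over 12926 genes and a threshold of 0.05.

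Depth was read from single-read steps of low values. With M21 lengths, 50.6% to 52.2% of values of up to 20 reads came out whole within 0.02, against 4% by chance, so recovered reads are approximate and no count test was run. Of the members, 62 were matched to GENCODE M21 by identifier and 2 by symbol. Protein sequences of the members were not used here.

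The members and the gene lists were chosen with earlier results of these data known. Named members were those called, the member of each type with the highest mean, and the member of each type with the largest log2 difference in each comparison. Other members, the limit of 5 RPKM, the ratio to Rn7sk and its use as a covariate were chosen after values were seen. Whether replicate numbers pair libraries was checked by how far libraries of the same number deviated together (correlation across genes). The correlation was 0.41, 0.37 and 0.38 for same-number pairs of K36M and rtTA, against -0.38 to 0.01 for the others. Deviations cancel out within a group, so negative values for the others are partly built in. For K9M and rtTA the same-number correlation was 0.16, 0.06 and 0.02, and for K36M and K9M 0.07, -0.17 and 0.05. The labels give no pairing, and the main fit used none. The replicate number entered only as a block in 1 alternative, where Hist1h1c in K36M against rtTA had a limma adjusted p of 0.036. On simulated data the fit recovered 65, 74 and 71 of 100 genes changed 2-fold and 97, 95 and 98 of 100 changed 4-fold in K9M against rtTA, K36M against rtTA and K36M against K9M. The changed genes were drawn from all tested genes, with noise independent between genes. Their median SE was 0.17, against 0.34 for the members, so these rates do not describe the members. Alternatives changed the pseudocount, the filter, the scaling, the trend, the weights of libraries, the block by replicate number or the groups fitted, or left out each library in turn.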

Additional observations from a re-analysis of the deposited data

How the results depend on the processing

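The number of called members was 0 in K9M against rtTA under every alternative run. In K36M against rtTA it was 1 and became 0 with no filter and with only the 2 groups compared, and ranged from 0 to 1 with each library left out. In K36M against K9M it was 0 and became 1 with library weights, namely Hist1h1a at -1.03 (limma adjusted p = 0.0484), and stayed 0 with each library left out. With the replicate number as a block, the counts were 0, 1 and 0 and no member's call changed. Of 871 values of the named members under alternatives, 826 kept their sign, and the 45 others belonged to members that were not called. Over all tested genes the counts were 15, 194 and 326 in the 3 comparisons, and they ranged from 3 to 62, 10 to 397 and 15 to 595 over the alternatives. The causes were not tested.

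Without the most abundant gene of each type, the mean summed RPKM in rtTA, K9M and K36M was 3.25, 4.01 and 2.35 for H1, 135.2, 158 and 117 for H2A, 137.0, 132 and 114 for H2B, 6.66, 7.48 and 4.39 for H3, and 55.1, 57.5 and 53.3 for H4, so the H1 order with rtTA highest rested on Hist1h1c. Rescaling left the sums within the spread between replicates. Depth limits the low members: 32 of 64 had a mean under 1 RPKM, and 1 read of a transcript of 1 kb was worth 0.0199 to 0.0630 RPKM.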
